A study of Mus musculus with 6 samples.

Results

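The genes described here are 49 genes of the synaptic vesicle release machinery, taken by name from the 54532 genes of a count table of mouse cerebellum. By role they are 5 priming factors, 9 calcium sensors, 5 synaptotagmins without known calcium binding, 10 SNARE proteins and SNARE regulators, 9 Rab3 and active zone proteins and 11 proteins of the vesicle membrane and vesicle pool. They are identified by name, with no threshold on a measured value. mRNA was sequenced from whole cerebella at postnatal day 1, in 3 control libraries and 3 mutant libraries. The labels give the controls as Tox3f/f littermates and the mutants as Nestin-cre;Tox3f/f, a conditional knockout. Both groups therefore carry the floxed *Tox3* allele, and Nestin-cre, which drives Cre recombinase from Nestin elements in neural cells, stands in the genotype of the mutants only, so that transgene and deletion cannot be told apart. The comparison asks how the release genes were expressed when *Tox3*, a nuclear protein of the HMG-box family, had been deleted in the nervous system.

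Total counts per library were 15391854 to 17178478, and 48 of the 49 genes passed the filter on low counts, as did 17505 genes of the whole table. *Cplx3* was not tested, with 1 to 9 counts in a library. Together the 49 genes took 0.633% to 0.680% of the counts of a library. By RT-qPCR of cerebella of the same age, the study reports that *Tox3* was almost entirely lost in mutants. The count of *Tox3* was 63.0 to 64.4 CPM in the control and 55.3 to 63.2 CPM in the mutant libraries. Here CPM is the count scaled to a common TMM-normalized total. The 2 ranges overlapped, so this count does not check the labels. Reads were not examined by exon, and why the count differed so little was not tested. *Atoh1*, the bHLH transcription factor of granule neuron progenitors, stood at 30.9 to 32.6 CPM in the control and 0.249 to 0.577 CPM in the mutant libraries. All directions below are those of the libraries labelled mutant against the libraries labelled control. Y-chromosome genes were counted at 203 to 253 CPM in control 1, mutant 1 and mutant 3 and at 0.128 CPM or less in control 2, control 3 and mutant 2. Defining markers of the midbrain and hindbrain outside the cerebellum were near 0, with a sum over 8 genes of 1.37 to 4.55 CPM.

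Neurons release transmitter when vesicles that have docked at the active zone fuse with the plasma membrane. SNARE proteins on both membranes drive the fusion, priming factors of the CAPS and Munc13 families bring vesicles to the ready state, synaptotagmins sense the calcium that triggers fusion, and scaffolds such as Bassoon and Piccolo hold the vesicles in place. CAPS proteins also act in the release of dense-core vesicles, which carry peptides and neurotrophins. In the newborn cerebellum Purkinje cells and other GABAergic neurons have left the cell cycle, while granule neurons are still being produced from progenitors in the external granule layer.

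*Cadps2*, which encodes CAPS2, and its paralog *Cadps*, which encodes CAPS1, are the pair on which the results turn, and the 250 bases before their starts are shown for that reason. The windows are from the RefSeq promoter table of build GRCm38.p6 and read 5′ to 3′ on the minus strand, which both genes use. Capitals mark E-boxes, CANNTG on either strand, the core sequence bound by bHLH proteins such as *Atoh1*. The *Cadps2* window is chr6:23839422-23839671 and the *Cadps* window is chr14:12823080-12823329.
Cadps2: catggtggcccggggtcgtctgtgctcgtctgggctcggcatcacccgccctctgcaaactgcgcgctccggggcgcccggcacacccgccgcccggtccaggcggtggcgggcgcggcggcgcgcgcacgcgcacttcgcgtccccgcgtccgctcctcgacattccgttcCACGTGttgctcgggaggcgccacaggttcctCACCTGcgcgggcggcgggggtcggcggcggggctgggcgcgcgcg
Cadps: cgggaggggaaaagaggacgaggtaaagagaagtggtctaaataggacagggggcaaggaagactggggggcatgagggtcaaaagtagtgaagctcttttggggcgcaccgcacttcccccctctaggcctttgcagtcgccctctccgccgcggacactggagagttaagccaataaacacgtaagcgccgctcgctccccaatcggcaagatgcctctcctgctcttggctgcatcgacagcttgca
The *Cadps2* window held 2 E-boxes, CACGTG and CACCTG, beginning 78 and 46 bases before the start, and the *Cadps* window held 0. CANNTG occurred in 66.2% of 32851 promoter windows of that length and the subset CAGGTG or CACCTG, a kind of E-box within the first motif, in 17.2%, so neither is rare in such windows. The *Cadps2* window held 0 CAGCTG and 0 CATCTG or CAGATG, 2 other subsets, found in 13% and 14.4% of the windows. Binding of *Atoh1* to either E-box was not tested. Of the 49 genes, 36 had a promoter in the table, with 48 windows among them. At least 1 E-box was held in any window by 27 of these genes, 75%. That share is per gene and the 66.2% is per window, so the 2 are not in the same unit.

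*Cadps2* was the release gene with the greatest difference between the groups. Of the 48 tested genes it was the only one called lower, and 3 were called higher: *Syt2*, *Syt17* and *Sv2c*. To be called, a gene had to pass an adjusted p of 0.01 in edgeR (quasi-likelihood, Benjamini-Hochberg over all tested genes) and to exceed 0.5 on the log2 scale in either direction. Both thresholds are those of the study, which used DESeq2. The 4 calls are 8.33% of the 48 genes, beside 6.66% of all tested genes (3.63% lower and 3.03% higher), so the share called was near the background. Without the fold threshold, 4 of the genes were lower and 15 higher at the same adjusted p, which is 39.6% beside 13.8% of all tested genes (7.24% lower and 6.55% higher). The 3 libraries of one group did not overlap those of the other in 9 genes that were lower and 28 that were higher, 77.1% of the 48 beside 40.5% of all tested genes (20.1% lower and 20.4% higher). The median log2 fold change of the 48 genes was 0.20, beside −0.01 over all tested genes, and 33 of the 48 values were above 0. The release genes were also more highly expressed than most, with a median of 88.8 CPM beside 21.4 CPM over all tested genes. The plot of log2 fold changes by role shows *Cadps2* apart on the low side and most other genes between −0.3 and 0.5.

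**Figure D1:**
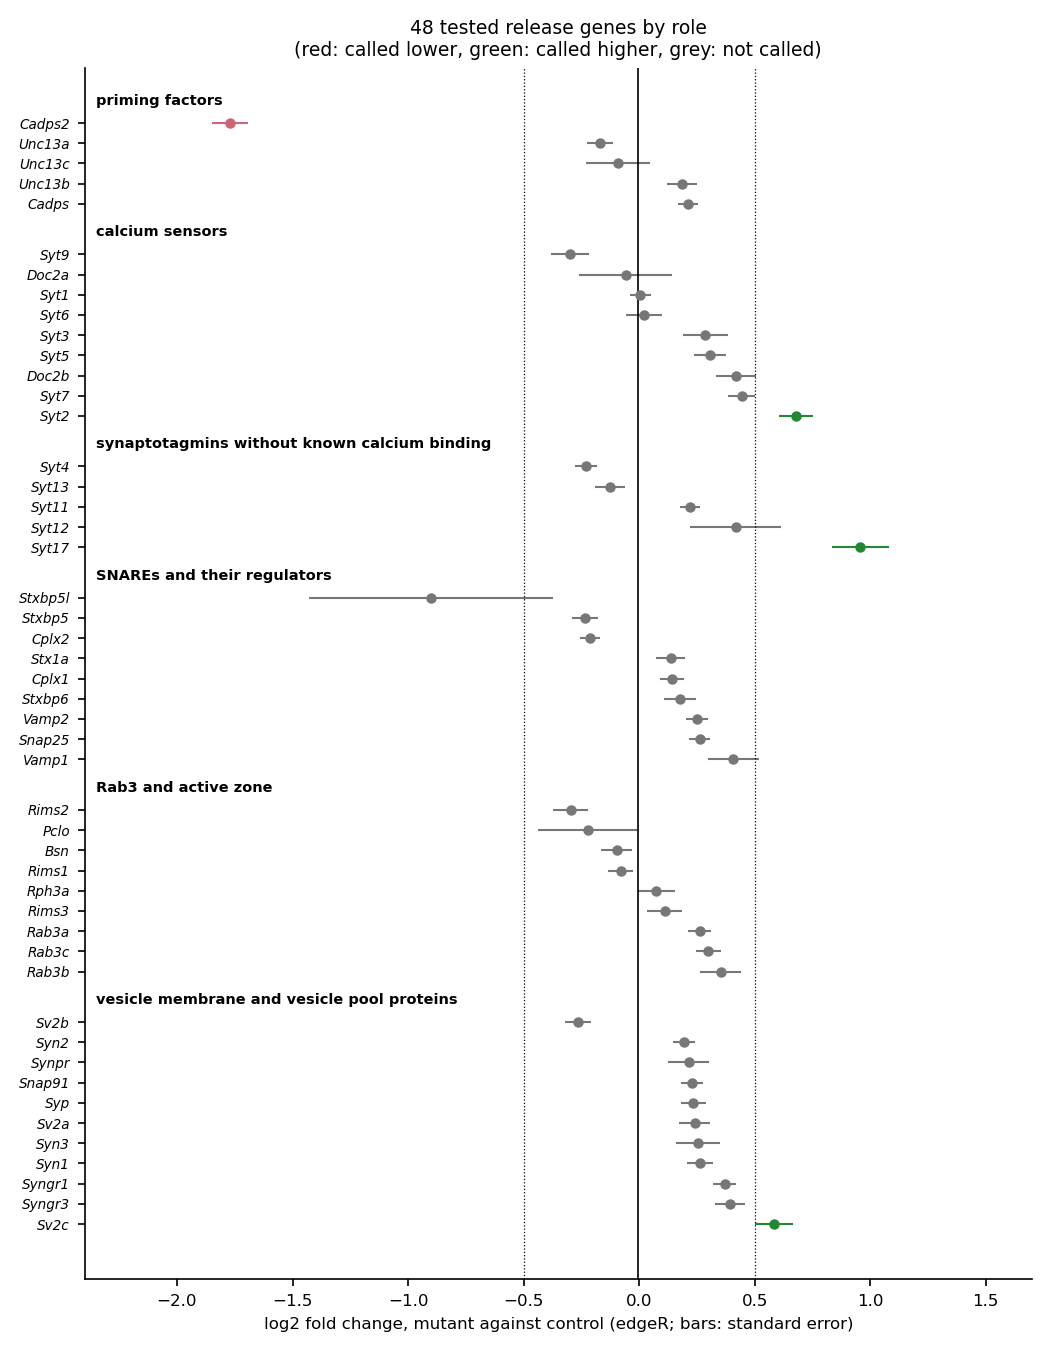
Log2 fold change, mutant against control, of the 48 tested release genes (y axis, grouped by role; x axis, edgeR log2 fold change), with bars for the standard error, a solid line at the median of all tested genes and dotted lines at the fold threshold of 0.5 in either direction. *Cadps2* lies at −1.77 and *Syt17* at 0.96, while the long bar of *Stxbp5l* marks a gene that varied within both groups.

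Among the priming factors, the CAPS pair moved apart. *Cadps2* (ENSMUSG00000017978) occupies chr6:23262773-23839421 on the minus strand of GRCm38. It was found at 161, 182 and 181 CPM in control 1, 2 and 3 and at 55.1, 52.4 and 46.1 CPM in mutant 1, 2 and 3, and the smallest count behind these values was 741 reads. Even the highest mutant library lay far below the lowest control. The log2 fold change was −1.77 (standard error 0.08, edgeR adjusted p = 1.04e-06), 3.41-fold lower, and by p *Cadps2* ranked 12 of the 17505 tested genes. The only other genes within its span that were counted, *Rnf133* and *Rnf148*, reached means of 0.345 and 0.173 CPM, so shared reads could account for little of its count.

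*Cadps* (ENSMUSG00000054423, chr14:12372563-12823079, minus strand) was counted at 176, 171 and 175 CPM in the controls and 204, 197 and 205 CPM in the mutants. All 3 mutant libraries were above all 3 controls. The log2 fold change of 0.21 (standard error 0.04, edgeR adjusted p = 0.00561) passed the adjusted p but not the fold threshold. *Gm48239* on the opposite strand of *Cadps*, at a mean of 17.4 CPM, may share reads with it if the counting did not use strand.

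The difference between the paralogs can be taken within each library, which cancels any scaling between libraries. The log2 ratio of *Cadps2* to *Cadps* was −0.13, 0.09 and 0.05 in the controls and −1.89, −1.91 and −2.15 in the mutants. Counts of the pair were thus nearly equal in each control, and the mean ratio in the mutants was 0.253 times that of the controls. The difference between the groups was −1.98 (standard error 0.11, two-sided exact permutation test, p = 0.1), which is the smallest p that 3 libraries against 3 can give. In FPKM, which divides by gene length and so allows levels of different genes to be compared, *Cadps2* made up 61.1% ± 1.96 of the sum of both genes in the controls and 28.5% ± 2.05 in the mutants (SD, n = 3). That sum was 29.6 ± 1.17 FPKM in the controls and 18.7 ± 0.522 FPKM in the mutants, 0.632 times as high. By FPKM *Cadps2* held rank 21 of the 49 release genes in the controls and rank 36 in the mutants, while *Cadps* held ranks 26 and 25.

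The same ratio was taken against 14 general release genes, which serve release at most synapses: *Syt1*, *Snap25*, *Stx1a*, *Vamp2*, *Cplx1*, *Cplx2*, *Unc13a*, *Rims1*, *Rab3a*, *Bsn*, *Pclo*, *Sv2a*, *Syn1* and *Syp*. Relative to their median, *Cadps2* stood at −0.31, −0.04 and −0.17 on the log2 scale in the controls and −2.05, −2.03 and −2.34 in the mutants. The difference was −1.96 (standard error 0.13, exact permutation test, p = 0.1), again the smallest p possible. For *Cadps* the same difference was 0.02 (standard error 0.03, exact permutation test, p = 0.6), which was within the spread between libraries. After adjustment over the 8 ratios tested, the exact p-values of the 2 *Cadps2* ratios were both 0.133. Of the 48 tested release genes, *Cadps2* was the lowest relative to the general genes, followed by *Stxbp5l* at −1.27, whose groups overlapped, and *Syt9* at −0.49.

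**Figure D2:**
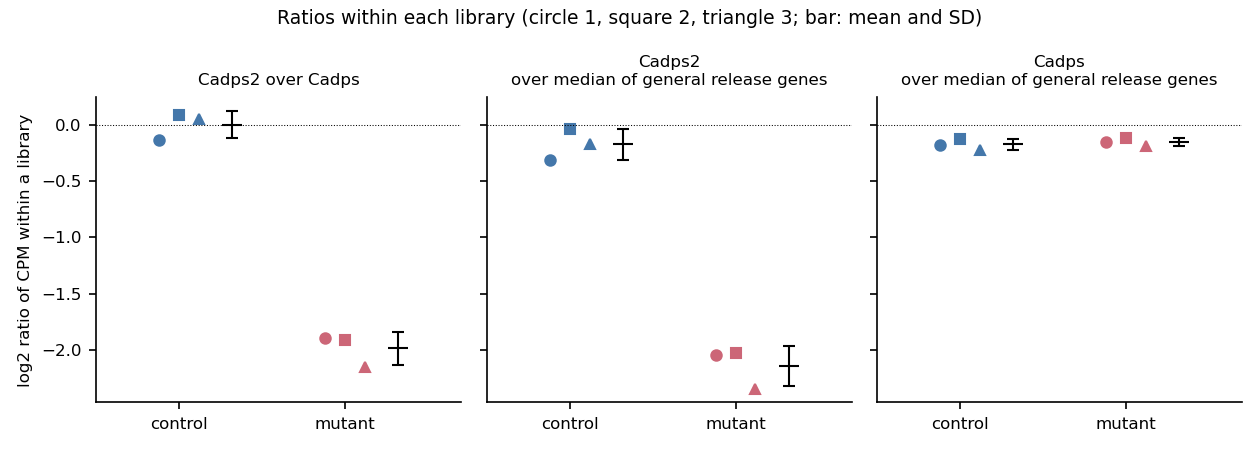
Log2 ratio of CPM within a library (y axis) for *Cadps2* over *Cadps*, *Cadps2* over the median of 14 general release genes and *Cadps* over that median, in the 3 control and 3 mutant libraries (points; bars, mean and SD). Both *Cadps2* ratios are near 0 in the controls and near −2 in the mutants, whereas the *Cadps* ratio is between −0.22 and −0.12 in all 6 libraries.

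Markers of the granule cell lineage moved in the same direction as *Cadps2*. All 9 markers of granule neuron progenitors fell, with a median log2 fold change of −1.09, and their summed level was 1600 to 1701 CPM in the controls and 691 to 736 CPM in the mutants. The list was chosen with earlier results of these data known. It holds *Atoh1*, *Barhl1* and *Sema7a*, which the study reports as lower in this mutant, so their direction is not independent support. It also holds *Mki67*, a marker of proliferation. All 8 tested granule neuron markers were lower and 5 of them were called, with a median of −0.76. Their summed level was 3914 to 4024 CPM in the controls and 2533 to 2741 CPM in the mutants. Among them were *Neurod1*, a transcription factor of differentiating granule neurons, with a log2 fold change of −1.16, and *Rbfox3*, which encodes the neuronal antigen NeuN, with −0.73. The part of these markers in the difference of *Cadps2* was not tested. In whole cerebella, fewer cells of a type and less RNA per cell cannot be told apart.

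The Munc13 genes, whose products open syntaxin for SNARE assembly, were not called in either direction. *Unc13a* was counted at 260.5, 232 and 256 CPM in the controls and 223, 212 and 230.2 CPM in the mutants, a log2 difference of −0.17 (standard error 0.06, edgeR adjusted p = 0.0502). The values of *Unc13b* and *Unc13c* were 0.18 and −0.09. The log2 ratio of *Unc13a* to *Unc13b* was 1.48 to 1.76 in the controls and 1.08 to 1.35 in the mutants, a difference of −0.35 (standard error 0.12, exact permutation test, p = 0.1). *Unc13a* overlaps *Colgalt1*, and its reads may not all be its own.

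The calcium sensors were led by *Syt2*, a fast sensor of release at many inhibitory and hindbrain synapses. *Syt2* (ENSMUSG00000026452, chr1:134646677-134762593, plus strand) was counted at 33.6, 34.3 and 37.4 CPM in the controls and 55.3, 54.6 and 58.7 CPM in the mutants. The lowest mutant library was well above the highest control. *Syt2* rose by a log2 fold change of 0.68 (standard error 0.07, edgeR adjusted p = 1.82e-04), or 60.0%. *Ppp1r12b* overlaps *Syt2* on the opposite strand at a mean of 96.0 CPM, with a log2 fold change of 0.09 that was not called.

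*Syt1*, the main fast sensor in forebrain neurons, is the paralog with which *Syt2* was compared. Its values were 349, 334 and 325 CPM in the controls and 333, 335 and 343 CPM in the mutants. The groups overlapped, and the log2 fold change was 0.0049 (standard error 0.05, edgeR adjusted p = 0.953). The log2 ratio of *Syt2* to *Syt1* was −3.37, −3.28 and −3.12 in the controls and −2.59, −2.62 and −2.54 in the mutants. The difference was 0.67 (standard error 0.08, exact permutation test, p = 0.1). Among the 12 synaptotagmins in the set, *Syt2* made up 1.77% ± 0.126 of the summed FPKM in the controls and 2.66% ± 0.0560 in the mutants (SD, n = 3), so it remained a minor member.

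*Syt7*, a slower sensor linked to asynchronous release, and *Doc2b*, a sensor of spontaneous release, passed the adjusted p without the fold threshold. *Syt7* was counted at 137, 129.9 and 140.2 CPM in the controls and 194, 171 and 189 CPM in the mutants, with 0.44 on the log2 scale (standard error 0.06, edgeR adjusted p = 5.96e-04). *Doc2b* was counted at 27.0, 23.6 and 26.6 CPM in the controls and 36.0, 32.3 and 34.9 CPM in the mutants, a log2 difference of 0.42 (standard error 0.09, edgeR adjusted p = 0.00588). In both genes all mutant libraries lay above all controls. The other calcium sensors, *Syt3*, *Syt5*, *Syt6*, *Syt9* and *Doc2a*, were not called and ranged from −0.30 for *Syt9* to 0.31 for *Syt5*. Over the 9 calcium sensors the median log2 fold change was 0.29, and 7 of the values were above 0.

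Of the 5 synaptotagmins without known calcium binding, *Syt17* was called. *Syt17* (ENSMUSG00000058420, chr7:118380717-118448222, minus strand), which encodes B/K protein, was counted at 5.66, 5.60 and 5.65 CPM in the controls and 10.7, 10.3 and 11.9 CPM in the mutants. Its level was low, with 86 to 88 reads in a control library, but the controls differed by little and no mutant library came near them. *Syt17* rose by a log2 fold change of 0.96 (standard error 0.12, edgeR adjusted p = 5.55e-04), or 94.2%. *Syt11* and *Syt4* passed the adjusted p alone, with log2 fold changes of 0.22 and −0.23, and the values of *Syt12* and *Syt13* were 0.42 and −0.13. By FPKM, *Syt11* was the most abundant synaptotagmin of the set in both groups, at 68.0 ± 1.62 and 79.5 ± 1.75 FPKM (SD, n = 3).

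**Figure D3:**
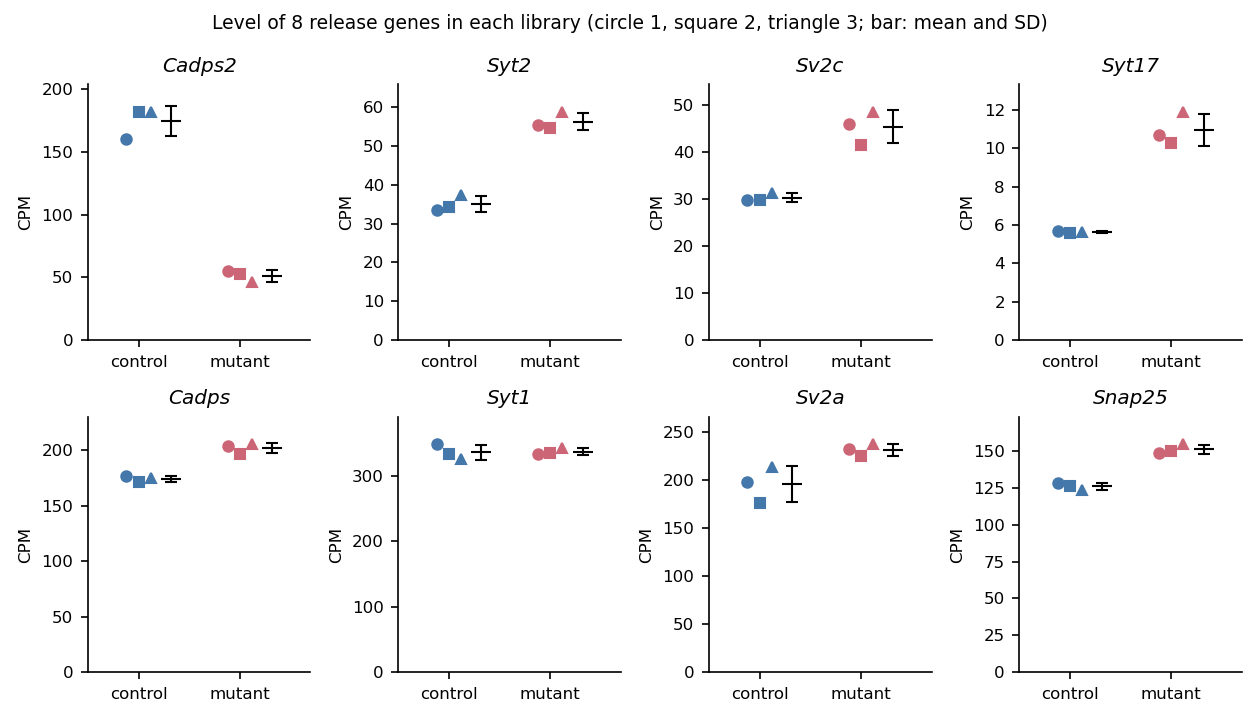
Level in CPM (y axis, from 0) of the 4 called release genes (top row: *Cadps2*, *Syt2*, *Sv2c* and *Syt17*) and of a paralog or a general release gene (bottom row: *Cadps*, *Syt1*, *Sv2a* and *Snap25*) in the 3 control and 3 mutant libraries, with mean and SD. The groups are apart in all 4 panels of the top row. In the bottom row they are also apart for *Cadps*, *Sv2a* and *Snap25*, and the control and mutant libraries overlap only for *Syt1*.

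No SNARE gene or SNARE regulator was called by edgeR or DESeq2, although 2 were lower and 5 higher at an unadjusted p under 0.05, which 37.1% of all tested genes reached. *Snap25*, whose product is the plasma membrane SNARE of most neurons, was counted at 128, 126 and 123 CPM in the controls and 148, 149.6 and 154 CPM in the mutants. The log2 fold change was 0.26 (standard error 0.05, edgeR adjusted p = 0.00262). *Vamp2*, the vesicle SNARE, had a value of 0.25 (standard error 0.05, edgeR adjusted p = 0.00361), and *Stx1a*, the syntaxin partner, of 0.14 with an adjusted p of 0.151. *Vamp1*, the vesicle SNARE of many brainstem and spinal synapses, had a value of 0.41 (standard error 0.11, edgeR adjusted p = 0.0214). Its log2 ratio to *Vamp2* differed by 0.15 between the groups (standard error 0.11, exact permutation test, p = 0.3), within the spread between libraries.

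The complexins, which clamp and then assist SNARE fusion, split by gene. *Cplx2* was the most abundant release gene by FPKM in both groups. It stood at 1017, 981 and 955 CPM in the controls and 841, 843 and 864 CPM in the mutants, and the log2 fold change was −0.21 (standard error 0.04, edgeR adjusted p = 0.00656). *Cplx1* was counted at 169, 178 and 171 CPM in the controls and 179, 193 and 199.7 CPM in the mutants, with a value of 0.14 (standard error 0.05, edgeR adjusted p = 0.0776). All mutant libraries were below the controls for *Cplx2* and above them for *Cplx1*. The log2 ratio of *Cplx2* to *Cplx1* was 2.46 to 2.59 in the controls and 2.11 to 2.23 in the mutants, a difference of −0.35 (standard error 0.05, exact permutation test, p = 0.1). The tomosyn gene *Stxbp5*, whose product holds back SNARE assembly, had a log2 fold change of −0.24 and *Stxbp6*, which encodes amisyn, of 0.18.

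*Stxbp5l*, the second tomosyn gene, varied within both groups and was chosen for its values. Its level was 11.5, 32.6 and 32.4 CPM in the controls and 6.81, 27.7 and 6.85 CPM in the mutants. The 3 low libraries, control 1, mutant 1 and mutant 3, are those with Y-chromosome genes. The groups overlapped, and the log2 fold change was −0.90 (standard error 0.53, edgeR adjusted p = 0.249). Without mutant 2 it was −1.89 and called, at an edgeR adjusted p of 0.00464. With the level of Y-chromosome genes in the fit, the difference between the groups was −0.48 (edgeR adjusted p = 0.00763) and the term for that level was −1.80 (edgeR adjusted p = 3.58e-07).

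*Pclo*, which encodes the active zone scaffold Piccolo, and *Unc13c* followed the same division of libraries. *Pclo* was counted at 98.0, 166 and 134 CPM in the controls and 92.8, 154 and 93.9 CPM in the mutants, with a term for the Y-gene level of −0.69 (edgeR adjusted p = 1.21e-05). *Unc13c* was counted at 24.2, 31.1 and 33.3 CPM in the controls and 25.6, 32.8 and 24.9 CPM in the mutants, with a term of −0.40 (edgeR adjusted p = 0.00700). In each of the 3 genes, the libraries with Y-chromosome genes were below the others in both groups. These were 3 of the 48 tested release genes, beside 2.94% of 16880 autosomal genes that were lower and 0.0237% that were higher where Y genes were high. The autosomal genes lower in those libraries had a median counted length of 10754 bases, beside 3940 bases for all tested autosomal genes. *Pclo* (22457 bases) was longer than both medians. *Stxbp5l* (8521 bases) and *Unc13c* (8796 bases) were shorter than the first but longer than the median of all tested autosomal genes. The part of gene length in these terms was not tested. Long members without a clear term included *Unc13b* (22746 bases, −0.15, edgeR adjusted p = 0.202) and *Cadps* (15054 bases, 0.04, edgeR adjusted p = 0.789). The Y-gene level and any other property that divides the libraries alike cannot be told apart here. For *Cadps2* the same term was −0.13 (edgeR adjusted p = 0.459). Its level was 161 CPM in control 1 against 182 and 181 CPM in the other controls, and 52.4 CPM in mutant 2 against 55.1 and 46.1 CPM in the other mutants.

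**Figure D4:**
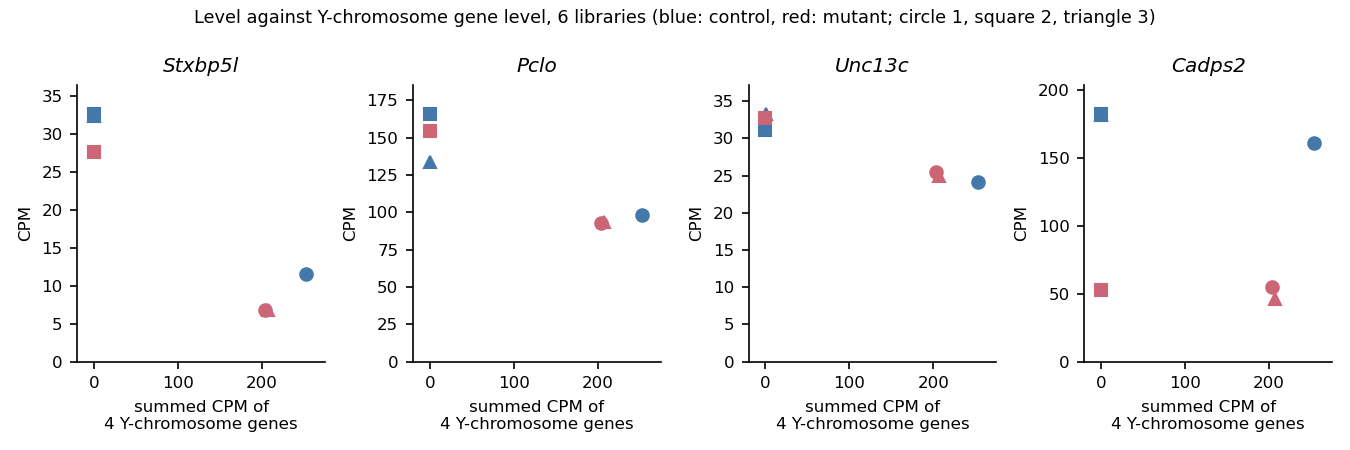
Level in CPM (y axes, from 0) of *Stxbp5l*, *Pclo*, *Unc13c* and *Cadps2* against the summed CPM of 4 Y-chromosome genes (x axes) in 3 control (blue) and 3 mutant (red) libraries. The first 3 genes are lower in the 3 libraries at 203 to 253 CPM on the x axis whatever their group, whereas *Cadps2* separates by group.

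Among the Rab3 and active zone genes none was called by edgeR or DESeq2, with 1 lower and 3 higher of 9 at an unadjusted p under 0.05, near the 37.1% of all tested genes. *Rab3a*, the main vesicle GTPase of the family, was counted at 217, 196 and 200.5 CPM in the controls and 244, 247 and 245 CPM in the mutants, with 0.26 on the log2 scale (standard error 0.05, edgeR adjusted p = 0.00348). *Rab3c* passed the adjusted p in the same direction with 0.30, and *Rab3b* had a value of 0.35. The scaffold genes had log2 fold changes of −0.08 for *Rims1*, −0.10 for *Bsn* and −0.22 for *Pclo* (standard error 0.21), none past the adjusted p, and *Rims2* had a value of −0.30. *Rims3* and *Rph3a*, the gene of rabphilin, had values of 0.11 and 0.07. The median of the 9 genes was 0.07.

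Of the 11 vesicle membrane and vesicle pool genes, 10 were higher and *Sv2b* was lower. The groups did not overlap in any of the 11, beside 40.5% of all tested genes without overlap. The median log2 fold change of the 11 was 0.24. At the adjusted p alone 5 were higher and 1 lower, 54.5% beside 13.8% of all tested genes. *Sv2c* (ENSMUSG00000051111, chr13:95954594-96132577, minus strand), a vesicle glycoprotein found in restricted sets of neurons, was the one called. It was found at 29.7, 29.7 and 31.3 CPM in the controls and 45.9, 41.5 and 48.5 CPM in the mutants. *Sv2c* rose by a log2 fold change of 0.58 (standard error 0.08, edgeR adjusted p = 7.69e-04), or 49.8%. *Gm20075* overlaps *Sv2c* on the same strand at a mean of 13.2 CPM, with a log2 fold change of −0.08 that was not called.

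Its paralogs were not called. *Sv2a*, present at most synapses, was counted at 198, 177 and 213 CPM in the controls and 232, 225 and 238 CPM in the mutants, a log2 difference of 0.24 (standard error 0.07, edgeR adjusted p = 0.0237). *Sv2b* was counted at 89.2, 85.0 and 89.0 CPM in the controls and 69.1, 76.4 and 73.5 CPM in the mutants, with −0.27 (standard error 0.06, edgeR adjusted p = 0.00769). The log2 ratio of *Sv2c* to *Sv2a* was −2.77 to −2.57 in the controls and −2.44 to −2.29 in the mutants, a difference of 0.34 (standard error 0.07, exact permutation test, p = 0.1). By FPKM, *Sv2c* made up 5.59% ± 0.324 of the SV2 family in the controls and 7.36% ± 0.406 in the mutants, and *Sv2b* 18.8% ± 1.02 and 13.8% ± 0.861 (SD, n = 3).

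The other vesicle genes had values of 0.20 to 0.39, not all of which passed the adjusted p. *Syn1*, which encodes the synapsin that tethers the reserve pool, was counted at 175, 159.5 and 153 CPM in the controls and 194, 199.7 and 192 CPM in the mutants, and the log2 fold change was 0.26 (standard error 0.06, edgeR adjusted p = 0.00732). *Syp*, the gene of synaptophysin, had a value of 0.23 (standard error 0.05, edgeR adjusted p = 0.0110), and *Snap91*, the gene of the clathrin adaptor AP180, of 0.23. *Syngr3*, a synaptogyrin gene, was counted at 57.7, 64.7 and 61.1 CPM in the controls and 84.7, 75.9 and 80.2 CPM in the mutants, with 0.39 (standard error 0.07, edgeR adjusted p = 0.00204), and its paralog *Syngr1* had a value of 0.37. *Syn2*, *Syn3* and *Synpr* ranged from 0.20 to 0.25. The genes *Syn1*, *Syn2*, *Syn3*, *Syngr1*, *Rab3a* and *Doc2a* each overlap another gene at a mean of 10 CPM or more, as do *Cadps*, *Syt2*, *Sv2c* and *Unc13a*.

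Of the 14 general release genes, none was called by edgeR or DESeq2. At the adjusted p alone 1 was lower and 4 higher, 35.7% beside 13.8% of all tested genes. At an unadjusted p under 0.05, 2 were lower and 7 higher, beside 37.1% of all tested genes. Their median log2 fold change was 0.14, and their summed level was 3503 to 3615 CPM in the controls and 3574 to 3673 CPM in the mutants.

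Several markers of GABAergic neurons and of glia moved in the direction of *Syt2*, *Syt17* and *Sv2c*, and some moved the other way. Of 10 Purkinje cell markers 9 were higher and 5 were called higher, with a median log2 fold change of 0.57. Their summed level was 1602 to 1729 CPM in the controls and 2218 to 2714 CPM in the mutants. *Gad1* and *Gad2*, which encode the enzymes that make GABA, rose by 0.58 and 0.52 and the glycine transporter gene *Slc6a5* by 0.64, while *Ptf1a*, the fate factor of GABAergic progenitors, fell and *Lhx1*, a factor of the Purkinje cell lineage, passed the adjusted p alone at −0.38. The summed level of 7 genes of GABAergic progenitors and interneurons was 508 to 535 CPM in the controls and 644 to 662 CPM in the mutants. All 8 astrocyte and Bergmann glia markers were higher and 3 were called, with a median of 0.43. Of the 8 oligodendrocyte lineage markers 7 were higher and 6 were called, with a median of 0.70. The other, *Pdgfra*, a marker of oligodendrocyte precursors, passed the adjusted p alone at −0.45. The 7 endothelial markers had 0 calls by edgeR, 1 at an unadjusted p under 0.05, and a median of −0.13. The collagen genes *Col1a1* and *Col1a2* rose among 6 markers of the meninges, whose sum was 685 to 719.6 CPM in the controls and 830.4 to 1010 CPM in the mutants. The complement gene *C1qa* rose among 6 microglia markers, whose sum was 71.2 to 75.7 CPM in the controls and 90.7 to 104 CPM in the mutants. The summed level of 6 choroid plexus markers was 130 to 198 CPM in the controls and varied from 34.3 to 776 CPM among the mutant libraries. Of these markers 5 were higher, none of them called, and the median log2 fold change of the 6 was 1.16. The other, *Otx2*, was called lower at −1.16. Of 6 markers of glutamatergic nuclear neurons and unipolar brush cells 5 were higher, with a median of 0.21, and *Meis2* was called higher. Their summed level was 115 to 123 CPM in the controls and 115 to 119 CPM in the mutants. The part of these markers in the release gene differences was not tested.

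Of 40 further release genes outside the set 37 were tested, with a median log2 fold change of 0.18 and 10 values below 0. Called higher were 5 and called lower 0, 13.5% beside 6.66% of all tested genes. At the adjusted p alone 8 were higher and 2 lower, 27.0% beside 13.8%. With a library left out 1 to 4 were called higher, and over 18 alternatives the lowest number was 0. By edgeR 3 and 15 of them were lower and higher at an unadjusted p under 0.05 (37.1% of all tested genes), and DESeq2 called 0 and 5. The 5 were *Rims4*, a short active zone RIM, *Rimbp2*, which links RIM to calcium channels, *Rab27b*, a GTPase of secretory vesicles, *Stxbp2*, a syntaxin-binding Munc18 gene, and *Baiap3*, a Munc13-related gene of dense-core vesicle release. *Rims4* was counted at 98.0, 89.0 and 99.3 CPM in the controls and 138, 142 and 145 CPM in the mutants, with 0.57 on the log2 scale (standard error 0.06, edgeR adjusted p = 1.17e-04). *Ppfia2*, a liprin gene of the active zone, passed the adjusted p alone with −0.42.

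Vesicular transporters set which transmitter a vesicle carries, and 2 of them were called. *Slc32a1*, the vesicular transporter of GABA and glycine, was counted at 71.6, 73.4 and 69.7 CPM in the controls and 111, 106 and 119 CPM in the mutants and rose by a log2 fold change of 0.65 (standard error 0.06, edgeR adjusted p = 6.61e-05). *Slc17a8*, the vesicular glutamate transporter VGLUT3, rose by 0.60 (edgeR adjusted p = 0.00109). *Slc17a6*, which encodes VGLUT2, was counted at 84.5, 94.3 and 94.2 CPM in the controls and 67.2, 64.3 and 63.3 CPM in the mutants, and its value of −0.49 (edgeR adjusted p = 4.59e-04) was just short of the fold threshold. Of 6 such transporters 5 were tested, and the 2 calls are 40% of these, beside 6.66% of all tested genes.

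Of 15 genes for dense-core vesicle proteins and cargo, 1 was called, 6.67% beside 6.66% of all tested genes. *Ntf3*, the gene of the neurotrophin NT-3, was counted at 12.4, 13.2 and 14.6 CPM in the controls and 1.24 ± 0.345 CPM (SD, n = 3) in the mutants and fell by 3.42 on the log2 scale (standard error 0.20, edgeR adjusted p = 5.52e-06). The median of the list was 0.22, and *Cpe*, *Pcsk1n*, *Ptprn* and *Chgb*, which process or store peptides, passed the adjusted p alone at 0.30 to 0.44. The 25 genes of vesicle endocytosis and recycling had 0 calls by edgeR and by DESeq2, and a median of 0.06. At an unadjusted p under 0.05, 1 was lower and 8 were higher, near the 37.1% of all tested genes.

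Across fits, *Cadps2* was called lower in each of the 17 alternatives run on its log2 fold change, at −1.83 to −1.59. *Syt2*, *Syt17* and *Sv2c* were called in each fit that left out 1 library, but none passed when edgeR tested against the fold threshold itself, with adjusted p-values of 0.149, 0.0309 and 0.805. Without mutant 2, *Syt7* at 0.51 and *Vamp1* at 0.52 were also called higher, in a fit that called 569 of all genes higher instead of 530.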

How the data were processed

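RNA of mouse cerebella at postnatal day 1 was sequenced in 6 libraries after poly-T selection. After filtering for quality, the authors aligned reads to mm10 (HISAT2 2.0.5) and deposited counts per gene from featureCounts 1.5.0-p3. The authors also deposited FPKM, the count scaled by gene length and library. The annotation release, strand setting and handling of multiply mapped reads are not given in the sources used here. Groups came from the labels, and no label says that each library is 1 animal, so p-values measure the spread between these libraries. Libraries of 1 group differed by more than sampling noise (chi-square per gene of 3.63 to 10.0).

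In R 4.3.3, edgeR 4.0.16 (filterByExpr, TMM, glmQLFit, glmQLFTest) was fitted to all genes, and p-values were adjusted over the 17505 tested genes, which held 99.8% of counts. CPM used TMM-normalized totals. The common dispersion was 0.0105. Ratios within a library used CPM with a prior count of 0.5 and a two-sided exact permutation test over 20 arrangements. The fits were tested on simulated data. E-boxes were searched in the 250 bases before RefSeq starts (GRCm38.p6).

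Alternatives were DESeq2 1.42.0, its size factors or library size in edgeR, a block for the replicate number, other low-count filters, leaving out each library in turn, limma-trend (limma 3.58.1) on log2(FPKM + 1) and log2(FPKM + 0.1), the Y-gene level as a covariate and other thresholds. The ratios other than the *Cadps2* ratios and the term of the Y-gene level itself were added after seeing the data. The members and gene lists were chosen with earlier results of these data known. Named genes were *Cadps2*, *Cadps*, the general release genes, called members, members among the 10 largest changes whose groups did not overlap, and up to 6 genes of each other list. Other members are named with their values only to account for all of them. *Stxbp5l* and *Unc13c* fall outside the rule and were picked after their values were seen.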

Additional observations from a re-analysis of the deposited data

How the results depend on the processing

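The log2 fold changes of *Cadps2* (−1.83 to −1.59) and *Cadps* (0.20 to 0.24) and the differences of *Cadps2* from *Cadps* (−2.05 to −1.80) and from the general release genes (−1.73 or lower) kept direction and call under each alternative run on them. The number of release genes called lower was 2 without a filter on low counts, where *Stxbp5l* was added at −0.90 (adjusted p = 4.88e-06, against 0.249 with the filter; the cause was not tested), 7 at an adjusted p under 0.05 without a fold threshold, and 1 to 2 with a library left out. The number called higher was 1 on log2(FPKM + 1) without a filter (*Sv2c* fell short of the fold threshold at 0.46, with or without the filter, and *Syt17* lost the call on its adjusted p, 0.0243 against 0.00290 with the filter, at an unchanged 0.58), 21 at an adjusted p under 0.05 without a fold threshold, 0 against the fold threshold itself, and 3 to 5 with a library left out. Without mutant 2 the counts were 2 and 5. Of all tested genes, 635 were called lower and 530 higher in the main fit. Those counts were 824 and 730 without a filter on low counts and 778 and 569 without mutant 2. No count over all genes was taken at an adjusted p under 0.05, so the 7 and 21 have no background here. The median log2 fold change of the release genes was 0.22 with library size alone, 0.18 on log2(FPKM + 1), 0.17 on the same scale without a filter and 0.19 to 0.21 with a library left out.

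Values near 0 changed sign. With the Y-gene level as a covariate, the *Syt1* log2 fold change was −0.0091, the *Syt6* log2 fold change −0.018 and the *Unc13c* log2 fold change 0.032. With a library left out, *Syt1* was −0.018 to 0.032, *Syt6* −0.019 to 0.069, *Unc13c* −0.22 to 0.0024 and *Doc2a* −0.20 to 0.21.

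With the replicate number as a block, 1 release gene was called lower and 3 higher, as without it, and 696 and 561 of all genes instead of 635 and 530. Same-numbered libraries had correlations of 0.43, 0.49 and −0.27 in their deviations from the group means. Control 1, control 3 and mutant 3 correlated best with a library of another number. The positive correlations all joined libraries alike in Y-chromosome genes, such as 0.46 for control 1 with mutant 3 and 0.34 for control 3 with mutant 2. That division can hide a pairing, so whether the numbers pair the libraries cannot be told from these correlations.

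Some genes had few counts: *Syt17* rests on 86 to 191 reads a library (standard error 0.12), and *Cplx3* could not be tested. A count of 3 equals at most 0.196 CPM. The largest standard error was not at a low count. It was that of *Stxbp5l*, 0.53 at 110 to 504 reads, followed by *Pclo*, 0.21 at 1505 to 2547 reads.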
